A study of Mus musculus and Rattus norvegicus with 6 samples.

Results

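The miR-106a-363 cluster is a group of microRNA (miRNA) hairpins on the X chromosome, and its members here are every mature name in either species' table that begins, after the species prefix, with miR-106a, miR-18b, miR-20b or miR-363. There were 8 such names among 2137 names in the tables of both species: 4 of 764 in the rat table (both arms of miR-20b and of miR-363) and 8 of 1915 in the mouse table, which adds both arms of miR-106a and of miR-18b. Rat miR-106a and miR-18b were not analysed here. The members were selected on measured values: the counts of miR-20b and miR-363 (in the mouse table mmu-miR-20b-5p, mmu-miR-20b-3p and mmu-miR-363-3p) were far higher in rat than in mouse in these same libraries. The difference between the species in the members is therefore a description, with no test.

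Small RNA was sequenced from retina, the neural tissue at the back of the eye that turns light into nerve signals, of wild-type Sprague Dawley rats and wild-type C57BL/6 mice, all 9 weeks old, with 3 libraries per species. The study profiled the retinal miRNAs of both rodents. The labels speak of triplicate biological samples without tying each to an animal, so p-values reflect only how far these libraries spread, and that spread may be technical. Their protocol text names rat eyes for the mouse samples as well. Each species has its own strain and its own table, so species, strain, annotation and library preparation cannot be told apart.

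The miR-106a-363 cluster is a paralog, a copy by duplication, of the miR-17-92 cluster, as is the miR-106b-25 cluster. A miRNA pairs with target messenger RNAs mainly through its seed, bases 2 to 8 from the 5′ end, and lowers their output. The miR-17-92 family is known for promoting proliferation and growth of progenitor cells, while the X-linked copy is described as little expressed in most adult tissues. The cluster also holds a copy of miR-19b and of miR-92a, whose main arms are spelled the same as those from the miR-17-92 cluster and so cannot be assigned to either locus.

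In the mouse genome (RefSeq, GRCm38.p6) the 6 hairpins lie within 875 bases at chrX:52741693-52742567 on the minus strand, in the order Mir106a, Mir18b, Mir20b, Mir19b-2, Mir92-2 and Mir363 along the direction of transcription. Mir20b spans chrX:52742113-52742192 and Mir363 spans chrX:52741693-52741767. The long non-coding RNA gene Kis2 (chrX:52742563-52744593) overlaps the Mir106a end by its annotation. Mature sequences below are those of mouse from RefSeq (GRCm38.p6), 5′ to 3′, with the seed in capitals. Rat sequences were not used here, and names were matched between the species, not sequences.

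The first set shows the 5p arms that carry the miR-17 seed, AAAGUGC, because they are the names from which miR-20b-5p has to be told apart in counting.
miR-20b-5p: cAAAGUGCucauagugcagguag
miR-106a-5p: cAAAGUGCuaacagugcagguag
miR-17-5p: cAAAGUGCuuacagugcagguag
miR-20a-5p: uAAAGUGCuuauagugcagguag
miR-93-5p: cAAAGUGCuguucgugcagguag
miR-106b-5p: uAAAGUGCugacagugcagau
Counting positions from 1 at the 5′ end and giving the base of miR-20b-5p first, miR-20b-5p differs from miR-20a-5p by C1U and C10U, from miR-17-5p by C10U and U12C, and from miR-106a-5p by C10A and U12C. The closest pair is miR-106a-5p and miR-17-5p, which differ by A10U only, over 23 bases. How reads that match several names were counted is not given in the sources used here, so the split of counts among these names is uncertain.

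The second set shows arms with the miR-92 seed, AUUGCAC, shared by miR-363-3p: 3p arms and the 5p arm of miR-32. miR-92b-3p also carries this seed and is not printed.
miR-363-3p: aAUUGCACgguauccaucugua
miR-92a-3p: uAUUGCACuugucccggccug
miR-25-3p: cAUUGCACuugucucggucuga
miR-32-5p: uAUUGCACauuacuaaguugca
Outside the seed miR-363-3p is unlike its relatives: it differs from miR-92a-3p at 11 of 21 positions compared, from miR-25-3p at 13 of 22, and from miR-32-5p at 9 of 22.

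The third set shows the passenger strands, the arms of the hairpin that are usually less abundant, since they can mark a locus whose main arm has close copies elsewhere.
miR-20b-3p: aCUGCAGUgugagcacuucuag
miR-17-3p: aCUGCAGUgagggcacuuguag
miR-106a-3p: aCUGCAGUgccagcacuucuuac
Against miR-17-3p, miR-20b-3p differs by U10A, A12G and C19G, and against miR-106a-3p by U10C, G11C, A21U and G22A.

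The rat libraries r1, r2 and r4 held 24169628 to 28198305 counts and the mouse libraries m1, m3 and m4 held 27843590 to 30514632 counts. The tables share 542 names, of which 398 passed a filter on low counts and were tested. Among the 4 members found in both species, 3 passed it, all but miR-363-5p. Levels are given as CPM, counts scaled to each library's total of shared names after TMM normalisation, not divided by length, and the mature names printed above are 21 to 23 bases long. All 7 retinal marker miRNAs were detected in every library and together held 48.1 to 56.4% of the rat counts and 52.3 to 54.8% of the mouse counts. Rat library r1 stood apart: miR-184, abundant in lens and cornea, was at 18249.7 CPM in r1, against 1966 CPM in r2 and 1254 CPM in r4, and at 485 to 2009 CPM in mouse. All 8 names of the epithelium, cornea and lens list were found in both species, with sums of 1456 to 18455 CPM in rat and 717 to 2232 CPM in mouse, and miR-184 alone carried the high sum of r1. The other 7 names summed to 205 CPM in r1, 161 CPM in r2 and 202 CPM in r4, with 223 to 263 CPM in mouse. Retinal names differed in r1 as well: the list held 56.4% of all counts in r1, 48.1% in r2 and 50.0% in r4. In CPM miR-182 and 5 of its 6 other names were highest in r1, which depends on the TMM scaling. In unscaled counts only miR-182 and miR-183-5p were highest in r1, although r1 held the fewest counts in all. miR-182 had 7049197, 5067299 and 6193950 counts in r1, r2 and r4. All other names of the list had their lowest count in r1, such as miR-9a-5p with 1084488, 1934720 and 2187890 counts. Fitted differences between the species are therefore also given without r1.

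miR-363-3p, the main arm of the last hairpin of the cluster, was the most abundant member in both species. It had 1243, 6380 and 5983 counts in rat libraries r1, r2 and r4, against 18, 23 and 19 counts in mouse libraries m1, m3 and m4. In CPM these were 100.2, 282 and 238 in rat, with a mean of 207 ± 94.7 (SD, n = 3), and 1.04, 1.19 and 0.965 in mouse, with a mean of 1.06 ± 0.113 (SD, n = 3). Every rat library was far above every mouse library: the lowest rat value was 84.4 times the highest mouse value, and the ratio of the means was 194. The fitted log2 difference, rat minus mouse, was 7.59, and it was 7.92 without r1. Among the 398 names tested, 2 had a larger difference in this direction. By mean level miR-363-3p ranked 139th of 764 names in rat and 573rd of 1915 in mouse. Over the 542 shared names alone it ranked 120th in rat and 361st in mouse.

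miR-20b-5p, the X-linked counterpart of miR-20a-5p, had 57, 781 and 698 counts in rat libraries r1, r2 and r4, against 11, 13 and 16 counts in mouse libraries m1, m3 and m4. It averaged 22.3 ± 15.7 CPM in rat and 0.707 ± 0.0931 CPM in mouse (SD, n = 3 each). The species did not overlap, but r1, at 4.59 CPM, lay much nearer to mouse than did r2, at 34.5 CPM, or r4, at 27.7 CPM. The lowest rat value was 5.66 times the highest mouse value, whereas the mean of r2 and r4 was 44.0 times the mouse mean. The fitted log2 difference, rat minus mouse, was 4.97, and 5.44 without r1, and 10 tested names had a larger difference in this direction. miR-20b-5p ranked 270th of 764 names in rat and 622nd of 1915 in mouse, and 221st and 380th over the 542 shared names.

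miR-20b-3p, the passenger strand of the same hairpin, had 12, 117 and 122 counts in rat and 0, 1 and 0 counts in mouse. Its rat mean was 3.66 ± 2.34 CPM (SD, n = 3), with 0.967 CPM in r1 against 5.16 CPM in r2 and 4.85 CPM in r4. In mouse only 1 count was seen in all 3 libraries, and a count of 0 allows up to 0.174 CPM in m1 and 0.152 CPM in m4. The summed counts of 251 in rat and 1 in mouse, each set against its own species' scaled totals, gave a ratio of 235, with an exact counting interval (95%) of 41.8 to 9313. The interval states how little a ratio over 1 mouse count is pinned down; it covers counting error only and is no test of the species. The name passed the low-count filter through its rat libraries alone, and it was part of the choice of members.

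miR-363-5p, the passenger strand of miR-363, was low in both species, with 6, 25 and 17 counts in rat and 5, 5 and 7 counts in mouse. It averaged 0.754 ± 0.317 CPM in rat and 0.301 ± 0.0497 CPM in mouse (SD, n = 3 each), a ratio of 2.51, and it did not pass the filter. Each rat value lay above each mouse value, but the lowest rat value was 1.36 times the highest mouse value. All 4 members found in both tables thus had every rat library above every mouse library, as did 29.4% of the names tested. That count repeats the contrast on which the members were picked.

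The mouse table adds 4 names that stood at or near the detection limit. miR-106a-5p, the first miRNA of the cluster, had 10, 8 and 5 counts in m1, m3 and m4, or 0.415 ± 0.163 CPM (SD, n = 3). That was 1.88, 1.44 and 0.894% of the miR-17-5p counts in the same libraries, a name that differs from it at 1 base. miR-106a-3p and miR-18b-5p, the X-linked counterpart of miR-18a-5p, had 0 counts in every mouse library, which allows up to 0.174, 0.155 and 0.152 CPM. miR-18b-3p had 0, 1 and 0 counts. In order of level, the mouse retina gave miR-363-3p, miR-20b-5p, miR-106a-5p and miR-363-5p, and of these neighbours only miR-106a-5p and miR-363-5p had overlapping ranges. In rat the order was miR-363-3p, miR-20b-5p, miR-20b-3p and miR-363-5p, and the ranges of miR-20b-5p and miR-20b-3p overlapped, as did those of miR-20b-3p and miR-363-5p, through r1.

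**Figure D1:**
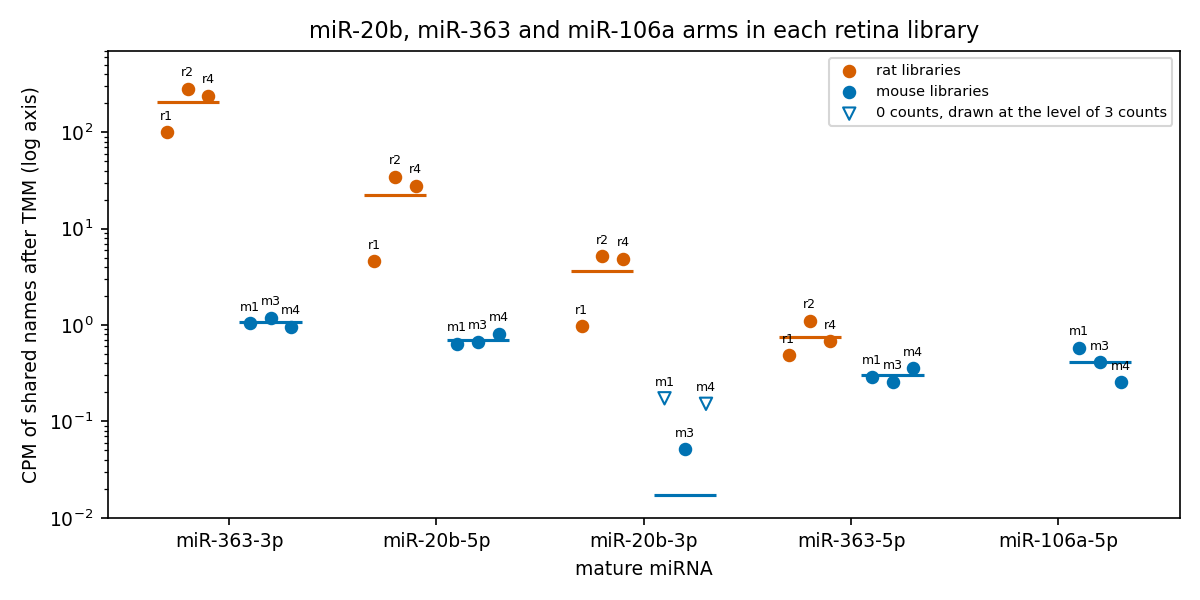
Level of each miR-363, miR-20b and miR-106a arm in CPM on a log axis, 1 point per library with rat left of mouse and bars at the species mean; miR-106a-5p has mouse values only, and open triangles mark 0 counts, drawn at the level of 3 counts. miR-363-3p lay at 100.2 to 282 CPM in rat and 0.965 to 1.19 CPM in mouse, and r1 was the lowest rat library for all 4 names.

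Because depth and scaling cancel within a library, ratios between members describe the cluster without them. miR-363-3p was 207, 255 and 352 times miR-363-5p in rat libraries r1, r2 and r4, and 3.6, 4.6 and 2.71 times in mouse libraries m1, m3 and m4. The main arm of miR-363 exceeded its partner far more in rat, but this largely repeats the contrast on which miR-363-3p was picked. The mouse ratios also rest on 5 to 7 counts of the 5p arm. miR-20b-5p was 4.75, 6.68 and 5.72 times miR-20b-3p in rat. The 2 arms of miR-20b thus kept a similar proportion in r1, where both were low, as in r2 and r4.

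Between the hairpins, miR-363-3p was 21.8, 8.17 and 8.57 times miR-20b-5p in rat libraries r1, r2 and r4, and 1.64, 1.77 and 1.19 times in mouse libraries m1, m3 and m4. The excess of miR-363-3p was larger in all 3 rat libraries than in any mouse library, and largest in r1. Since both names took part in the choice of members, no test was made of this.

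Names with the same seed are known to share many predicted targets, so each member's counts were also set against all names with its seed. By the mouse sequences 7 names carried the miR-17 seed, of which miR-106a-5p and miR-6383 were in the mouse table alone. There they held means of 0.255% and 0% of the counts with this seed. Names found only in the rat table were not checked for a seed. miR-20b-5p made up 2.76% of their counts in r1 (95% Wilson interval 2.14 to 3.56), 9.37% in r2 (8.76 to 10.0) and 8.60% in r4 (8.01 to 9.23), a mean of 6.91% ± 3.61 (SD, n = 3), or 8.99% over r2 and r4. In mouse it made up 0.370, 0.412 and 0.558% in m1, m3 and m4, a mean of 0.447% ± 0.0989 (SD, n = 3). Its closest counterpart, miR-20a-5p, held 29.2% ± 0.380 in rat and 30.2% ± 1.48 in mouse (SD, n = 3 each), a much steadier share. Against miR-20a-5p itself, miR-20b-5p stood at 9.31, 32.4 and 29.5% in rat and 1.25, 1.41 and 1.75% in mouse.

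The miR-92 seed was carried by 6 names by the mouse sequences, with miR-25-3p as the most abundant in both species. Of these miR-367-3p was in the mouse table alone, with 0 counts. miR-363-3p made up 2.85, 9.53 and 8.10% of their counts in r1, r2 and r4, a mean of 6.82% ± 3.51 (SD, n = 3), or 8.81% over r2 and r4. In m1, m3 and m4 it made up 0.0362, 0.0424 and 0.0367%, a mean of 0.0384% ± 0.00347 (SD, n = 3). Against miR-92a-3p, whose seed it shares and a copy of which lies in the same cluster, miR-363-3p stood at 22.8, 61.3 and 53.8% in rat and 0.125, 0.146 and 0.131% in mouse. The other names with the miR-17 seed, without miR-20b-5p, summed to 162, 334 and 295 CPM in r1, r2 and r4, and to 145 to 172 CPM in mouse. Only r1 overlapped mouse, and r2 and r4 lay above every mouse library. The other names with the miR-92 seed, without miR-363-3p, summed to 3412, 2675 and 2699 CPM in r1, r2 and r4 and to 2628 to 2881 CPM in mouse. There r1 lay above mouse, and r2 and r4 lay within its range.

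**Figure D2:**
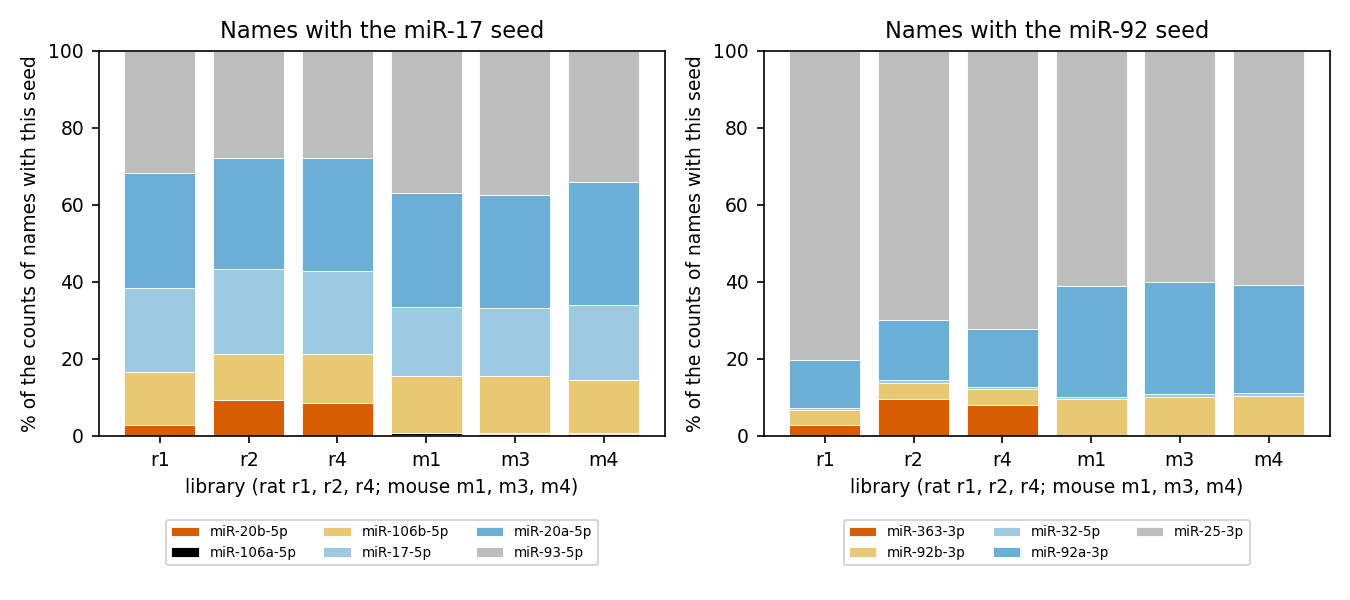
Share of the counts of all names with the miR-17 seed (left) and the miR-92 seed (right) in each library, in percent, with rat libraries r1, r2 and r4 left of mouse libraries m1, m3 and m4 and the X-linked members at the foot of each bar. miR-20b-5p took 2.76 to 9.37% and miR-363-3p took 2.85 to 9.53% in rat, against at most 0.558% and 0.0424% in mouse.

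How the members varied among the rat libraries was not used to pick them. Each rat library was set against the mean of the other 2 on a log2 scale after adding 0.5 CPM. In r1 miR-20b-5p stood at -2.63, the lowest of the 398 names tested, miR-20b-3p at -1.91, the second lowest, and miR-363-3p at -1.37, the fifth lowest. The median of all names tested was 0.00. With library totals of shared names in place of TMM the values were -3.29, -2.46 and -2.07, which ranked 1, 3 and 5 from the lowest, and the median of all names was -0.60. Without the added 0.5 CPM, miR-20b-5p in r2 was 7.50 times and in r4 6.04 times its level in r1, and miR-363-3p was 2.81 and 2.37 times. The SD over the rat libraries, in log2 units with 0.5 CPM added again, was 1.52 for miR-20b-5p, 1.10 for miR-20b-3p and 0.80 for miR-363-3p. The median over all names tested was 0.29. In mouse this SD was 0.11 for miR-20b-5p and 0.10 for miR-363-3p, against a median of 0.13. There the added 0.5 CPM is of the order of the members' own levels and narrows their spread.

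Relatives with and without the miR-17 seed were also lower in r1, by less. Among those with the seed, miR-17-5p stood at -1.04, miR-20a-5p at -1.02, miR-93-5p at -0.86 and miR-106b-5p at -0.85 on the same log2 scale. Among those without it, miR-19a-3p stood at -0.98, miR-93-3p at -0.89 and miR-19b-3p at -0.82, while miR-92a-3p stood at -0.03, miR-25-3p at 0.43 and miR-106b-3p at 1.13. The high miR-184 of r1 and its high counts of miR-182 and miR-183-5p stood beside these values. All 7 names of the vascular and mesenchymal list were found, with sums of 15284, 8525 and 9047 CPM in r1, r2 and r4 and 6843 to 8114 CPM in mouse, and miR-143-3p carried the high sum of r1. The other 6 names summed to 2689, 2637 and 2496 CPM in r1, r2 and r4, and 4 of them were lowest in r1. The part of these markers in the members' values was not tested. In bulk RNA, fewer cells of a type and less RNA per cell cannot be told apart.

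**Figure D3:**
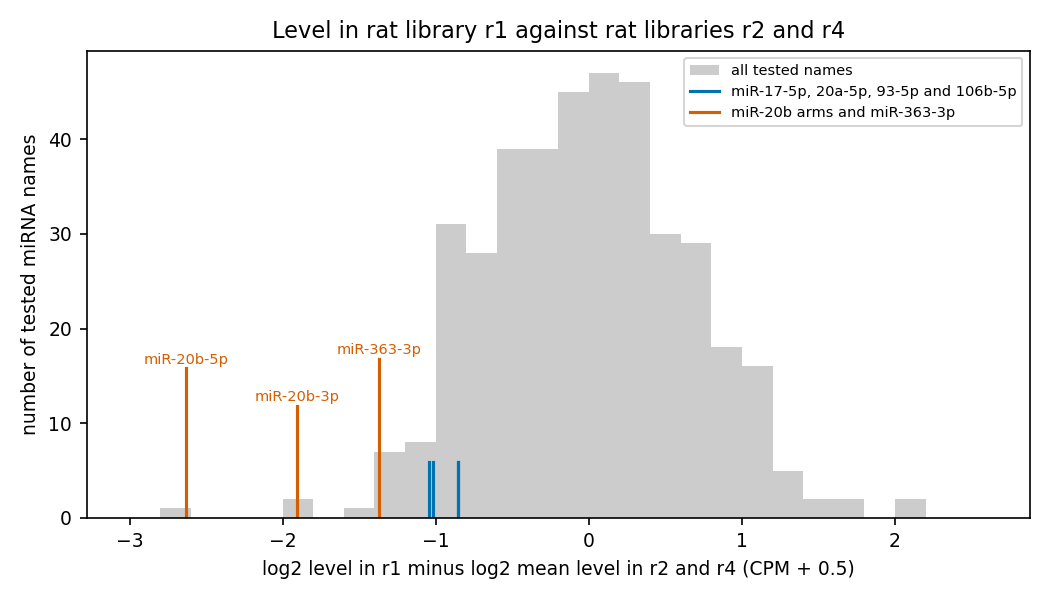
Number of tested names by the log2 difference between rat library r1 and the mean of rat libraries r2 and r4 (CPM + 0.5), with the 3 tested members marked in orange and 4 other names with the miR-17 seed in blue. miR-20b-5p at -2.63 and miR-20b-3p at -1.91 are the 2 lowest of 398 names, and miR-363-3p at -1.37 lies at the lower edge.

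miRNAs of other cell types were looked at for the same libraries. Of 12 pluripotent and early embryonic names, a cell state in which this cluster is known to be active, the rat table listed 6, of which 5 were at 0 in every library, and their summed count was 0 to 1. The mouse table listed all 12, of which 7 were at 0 in every library, with a summed count of 0 to 4. Red blood cell names, 4 of 6 listed in rat and 5 of 6 in mouse, summed to 294 to 330.2 CPM in rat and 308 to 323 CPM in mouse. The mouse sum adds miR-486a-5p, at 144 to 148 CPM, and miR-486b-5p, at 149 to 154 CPM, where rat has the single name miR-486. All 4 leukocyte names were found, at 78.0 to 83.3 CPM in rat and 76.3 to 79.5 CPM in mouse. Single names of the red blood cell list behaved differently from its sum, most of which was miR-486. miR-451, an erythroid miRNA, had 1.29, 3.97 and 2.03 CPM in r1, r2 and r4 and 13.0 to 18.2 CPM in mouse. miR-144-5p, from the same locus, had 0, 7 and 4 counts in r1, r2 and r4 and 16 to 17 counts in mouse. Both were lowest in r1 among the rat libraries, but the other names of the list were lowest in r4. In r1, r2 and r4 miR-144-3p had 0.322, 1.06 and 0.159 CPM, and miR-486 had 314, 325 and 292 CPM. The part of these names in the members' values was not tested.

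Passenger strands of the other X-linked copies in the cluster can be assigned to this locus and were not part of the choice. miR-19b-2-5p had 0 counts in all 6 libraries. miR-92a-2-5p had 0, 3 and 2 counts in r1, r2 and r4 and 0 counts in every mouse library. Both were too low to be tested, and both rat values above 0 came from the libraries in which miR-363-3p and miR-20b-5p were highest.

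The relatives of the members did not show one common direction. They include miR-19b-3p and miR-92a-3p, which also have a copy in the X-linked cluster and cannot be assigned to either locus. The rat table lists miR-17-1-3p and miR-17-2-3p beside a single miR-17-5p, so rat miR-17-5p cannot be assigned to 1 locus either. Of 24 listed relatives, from the miR-17-92 and miR-106b-25 clusters and from other loci with the same seeds, 16 were tested, of which 3 were higher in rat, 5 were lower and 8 were not called (edgeR quasi-likelihood test, Benjamini-Hochberg adjusted p under 0.05). Over all 398 names tested 25.6% were called higher and 24.4% lower, 50% in all. The median log2 difference was 0.25 over the relatives and 0.08 over all names. With library totals in place of TMM the relatives split into 3 higher and 2 lower, and all names into 127 higher and 43 lower, in place of 102 and 97, as the median of all names shifted by 0.36. The count of relatives called higher was 5 without r1, when 36.6% of all names were called higher, and 31.25% of the relatives. It was 1 without m1, 1 without m3 and 0 without m4, when 20.05, 19.5 and 19.0% of all names were.

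miR-17-5p, the founding member of the miR-17-92 cluster, was higher in rat, with 36.3, 80.7 and 69.8 CPM in r1, r2 and r4 against 30.8, 28.7 and 28.4 CPM in m1, m3 and m4. The libraries did not overlap, and the log2 difference was 1.09 ± 0.27 (SE, edgeR adjusted p = 0.00949), and 1.36 without r1. Its rat counts may come from more than 1 locus, as the rat table holds both miR-17-1-3p and miR-17-2-3p. miR-20a-5p, of the miR-17-92 cluster, had 49.3, 106.3 and 94.1 CPM in rat and 50.8, 47.6 and 46.5 CPM in mouse. Its r1 value lay within the mouse range, and the log2 difference was 0.79 ± 0.26 (SE, edgeR adjusted p = 0.0345), and 1.05 without r1. miR-25-3p, of the miR-106b-25 cluster, was higher in rat by 0.47 ± 0.17 on the log2 scale (SE, edgeR adjusted p = 0.0431), and by 0.32 without r1, its highest library, with 2815, 2065 and 2118 CPM in rat against 1757, 1682 and 1600.05 CPM in mouse. Leaving out m1, m3 or m4 ended the calls of miR-20a-5p and miR-25-3p, leaving out r2 or r4 that of miR-20a-5p, and leaving out m4 that of miR-17-5p. The call of miR-20a-5p also ended with either kind of library total and with relaxed name matching, and that of miR-25-3p with no filter on low counts and with relaxed name matching.

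In the opposite direction, miR-19b-3p and miR-92a-3p, which have a copy in the mouse X-linked cluster, were both lower in rat. miR-19b-3p had 21.1, 38.0 and 37.2 CPM in rat against 77.0, 71.5 and 64.2 CPM in mouse, a log2 difference of -1.14 ± 0.24 (SE, edgeR adjusted p = 0.00375), and -0.91 without r1. miR-92a-3p had 440.2, 459 and 442 CPM in rat against 832, 811 and 737 CPM in mouse, a log2 difference of -0.83 ± 0.14 (SE, edgeR adjusted p = 0.00105), and -0.81 without r1. miR-19b-3p and miR-92a-3p, shared with miR-17-92 in mouse, were thus lower in the species in which the miR-20b and miR-363 arms were higher. The libraries did not overlap for either, as for 30.4% of the names tested in that direction. With library totals in place of TMM the directions held, and the differences of -0.72 and -0.48 were not called.

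miR-19a-3p, also of the miR-17-92 cluster, was lower in rat, at -1.03 ± 0.28 on the log2 scale (SE, edgeR adjusted p = 0.0142), a call that ended without m1, without m3, without m4 and with library totals. It was -0.77 without r1. From other loci, miR-92b-3p differed by -1.12 ± 0.14 (edgeR adjusted p = 0.000226) and miR-92b-5p by -1.66 ± 0.26 (edgeR adjusted p = 0.000786). Without r1 these were -1.19 and -1.70, and both miR-92b arms were called lower under every alternative that was run. Of the 8 relatives not called, miR-106b-5p and miR-93-5p, which carry the miR-17 seed, had log2 differences of 0.63 and 0.50, and both were called higher without r1, at 0.86 and 0.73. The other 6, miR-106b-3p, miR-93-3p, miR-25-5p, miR-32-5p, miR-32-3p and miR-92a-1-5p, ranged from -0.28 to 0.55, and from -0.39 to 0.42 without r1, where miR-106b-3p changed sign to -0.13.

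The low arms that did not pass the filter were alike in showing few counts in both species. miR-18a-5p had 1, 5 and 12 counts in rat and 5, 3 and 5 counts in mouse, and miR-18a-3p had 3, 7 and 8 counts in rat and 7, 9 and 6 counts in mouse. miR-20a-3p had 3, 10 and 4 counts in rat and 5, 8 and 8 counts in mouse, miR-19b-1-5p had 0 to 4 counts in either species, and miR-19a-5p had 1 count in r1 and 0 elsewhere. The passenger strand of miR-20a was therefore rarer than that of miR-20b in r1, r2 and r4, while miR-20a-5p was the more abundant main arm in each. miR-367-3p, a pluripotency miRNA with the miR-92 seed, was listed in the mouse table alone, with 0 counts.

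**Figure D4:**
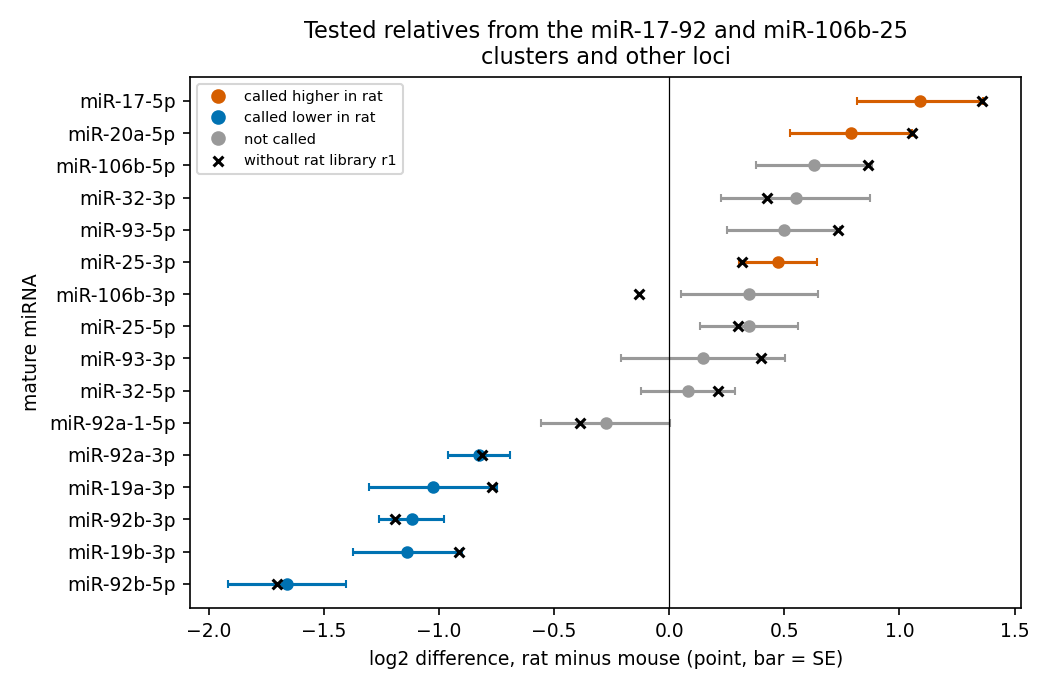
Log2 difference, rat minus mouse, for the 16 tested relatives, with bars for 1 SE, orange for names called higher in rat, blue for names called lower and grey for names not called, and crosses for the value without r1. miR-17-5p at 1.09 is the highest and miR-92b-5p at -1.66 the lowest, and the 5 names called lower include miR-19b-3p and miR-92a-3p.

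A neighbouring miRNA cluster on the mouse X chromosome, from miR-322 to miR-450, lies 305.4 kb away. Of its 14 listed names 9 were tested, of which 2 (22.2%) were higher in rat, 2 (22.2%) were lower and 5 were not called. Over all names tested 25.6% were called higher and 24.4% lower. The median log2 difference of the 9 was -0.04. The number called lower was 1 without r4, m3 or m4, and 0 with library totals. It was 3 without m1, 3 with DESeq2 and 4 of 11 with no filter on low counts. By the mean over both species its most abundant tested names were miR-351-5p, at 35.8 ± 7.06 CPM in rat and 62.3 ± 26.1 CPM in mouse, miR-322-3p, at 20.4 ± 2.80 CPM in rat and 46.8 ± 13.1 CPM in mouse, and miR-542-3p, at 17.1 ± 4.50 CPM in rat and 17.4 ± 3.41 CPM in mouse (SD, n = 3 each). Of these miR-322-3p was called lower, at -1.20 ± 0.24 on the log2 scale (SE, edgeR adjusted p = 0.00288), and -1.11 without r1. The largest difference of the 9 was that of miR-450b-5p, which had 11.4, 16.99 and 13.7 CPM in rat against 1.33, 1.70 and 1.07 CPM in mouse, a log2 difference of 3.36 ± 0.27 (SE, edgeR adjusted p = 1.17e-05), and 3.48 without r1. The other name called higher was miR-450a-5p, at 19.1 ± 3.89 CPM in rat and 8.71 ± 2.24 CPM in mouse (SD, n = 3 each), a log2 difference of 1.14 ± 0.25 (SE, edgeR adjusted p = 0.00502), and 1.28 without r1. The other arm of the miR-450b hairpin, miR-450b-3p, had a log2 difference of -0.50 and was not called.

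The names most like miR-363-3p and miR-20b-5p in pattern over the 6 libraries were found by the root mean square distance. It was taken between log2 CPM values, with 0.5 CPM added, centred on each name's mean. The distance includes the gap between the species on which the members were picked, so a short distance largely repeats that contrast. The names below had fitted log2 differences, rat minus mouse, of 3.36 to 10.98. miR-344b-5p had 0 counts in every mouse library, so the added 0.5 CPM sets its mouse values. Closest to miR-363-3p were miR-505-3p at 0.809, miR-452-5p at 1.01, miR-181a-2-3p at 1.06, miR-344b-5p at 1.28 and miR-325-3p at 1.38, where the median distance over the tested names was 3.47. Closest to miR-20b-5p were miR-539-3p at 0.680, miR-450b-5p at 0.880, miR-702-3p at 0.907, miR-505-3p at 0.962 and miR-325-3p at 0.966, with a median of 2.10. miR-20b-5p and miR-363-3p were 1.60 apart, a larger distance than that of any name in either list. miR-505-3p appeared in both lists and had 453, 1629 and 1585 counts in rat against 16, 18 and 15 counts in mouse. In r1 it stood at -0.88 against the mean of r2 and r4, on the log2 scale with 0.5 CPM added. There miR-539-3p stood at -0.83 and miR-450b-5p at -0.42, and the other listed names at -0.04 to 0.60. Of the 8 names in the 2 lists, 4 lie on the mouse X chromosome (miR-325-3p, miR-450b-5p, miR-452-5p and miR-505-3p), and miR-539-3p was given no chromosome. Among the 335 tested names with 1 chromosome in mouse, 42 names other than the members were X-linked. Since the lists follow the contrast on which the members were picked, no test was made of this.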

How the data were processed

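Per the labels' protocols, RNA was isolated from dissected retina with a miRNeasy kit and sequenced single-end on a HiSeq-2500 from Illumina libraries. Each species has 1 table, in which the authors deposited whole-number counts per mature name, not normalized. How reads were trimmed, aligned and assigned when they match several names, and against which annotation release, is not given in the sources used here. Columns r1, r2, r4, m1, m3 and m4 were assigned to their species, not to a numbered sample, and 0 columns were left unmapped.

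Exact names after the species prefix gave 542 shared names, which held 63.7 to 69.2% of the rat counts and 71.5 to 73.5% of the mouse counts. These were fitted in edgeR 4.0.16 (R 4.3.3) after filterByExpr, with TMM factors, using a quasi-likelihood F test of rat minus mouse on the 6 libraries and no covariate. Calls were made where p, adjusted by Benjamini-Hochberg over the 398 names tested, was under 0.05. The SE is the absolute log2 difference divided by the square root of F. CPM is the count scaled to the TMM-adjusted total of shared names. Wilson and exact (Clopper-Pearson) intervals (95%, SciPy 1.17.1) and the limit of 3 counts for a count of 0 cover counting error only, as reads are not independent molecules. Depth was 24169628 to 30514632 counts per library.

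The members, lists and tests were chosen with earlier results of these data known. Named are all members, the relatives, the other arms of the X-linked cluster, the 3 most abundant tested names of the neighbouring cluster and the 5 names most like miR-363-3p and miR-20b-5p. Others, such as miR-450a-5p, miR-450b-3p and the names among the additional observations, were chosen after their values were seen. Alternatives were RLE factors, library totals of shared or of all names, no filter on low counts, relaxed name matching (26 names added), DESeq2 1.42.0 and each library left out in turn. Figures were drawn with matplotlib 3.10.9 in Python 3.11.15.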

Additional observations from a re-analysis of the deposited data

Results flagged for a closer look

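Relatives listed in the table of 1 species only could not enter the comparison but held counts above the limit of 3 that a count of 0 allows. In the rat table, miR-17-2-3p had 73, 629 and 528 counts in r1, r2 and r4, or 5.88, 27.8 and 21.0 CPM. Its r1 value stood at -1.96 against the mean of r2 and r4 on the log2 scale with 0.5 CPM added, and 1 of the 398 tested names, miR-20b-5p, was as low in r1. miR-17-1-3p had 13, 32 and 44 counts in the same libraries. In the mouse table, miR-17-3p had 77, 90 and 79 counts in m1, m3 and m4. The rat table has a single 5p name, miR-17-5p, beside its pair of 3p names, and no locus was assigned to miR-17-2-3p here.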

How the results depend on the processing

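No paired analysis was possible because the columns are numbered 1, 3 and 4 in mouse and 1, 2 and 4 in rat, which do not match the replicate numbers of the labels. The count of relatives called higher (3) was 1 with relaxed name matching and 0 to 5 with 1 library left out. The count called lower (5) was 2 with library totals of shared names, 2 with totals of all names, and 4 to 5 with 1 library left out. The other arms of the X-linked cluster gave 0 calls throughout, but with 0 to 3 counts per library they could hardly have been called. With 1 library left out, the log2 difference was 7.32 to 7.92 for miR-363-3p, 4.54 to 5.44 for miR-20b-5p, 7.15 to 8.19 for the mean ratio of miR-20b-3p (with no value without m3, its only mouse count) and 0.95 to 1.56 for miR-363-5p, which was 1.33 with all libraries and 1.73 with library totals of shared names. The cause of these shifts was not tested.

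Over 25 single names, 248 values kept their direction and side of the threshold, 30 lost the call, 7 gained it and 15 changed sign, with none of those 15 called. The values that changed sign were 0.051 for miR-92a-1-5p with totals of shared names, -0.13 for miR-106b-3p without r1, -0.14 for miR-93-3p and -0.053 for miR-32-5p without r2. For miR-322-5p they were -0.11 without r2, -0.046 without m1 and -0.012 without m4. For miR-503-5p they were -0.028 with relaxed names, -0.37 without r2 and -0.34 without m1. For miR-542-3p they were 0.26 and 0.14 with totals of shared and of all names, 0.13 without r2, 0.019 without r4 and 0.13 without m3. Depth limits the mouse values of the members, which rest on 0 to 23 counts per library.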

Other observations

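Because several names with a pattern like that of the members lie on the mouse X chromosome, all tested names from that chromosome were counted, members left out. This list was chosen after values were seen and was given no test. Of 42 such names, 20 (47.6%) were called higher in rat, 7 (16.7%) were called lower and 15 were not called (edgeR quasi-likelihood test), against 25.6% higher and 24.4% lower over all 398 names tested and 28.1% and 22.1% over the 335 with 1 chromosome in mouse. Their median log2 difference was 0.49, against 0.08 over all names. The 4 X-linked names that prompted the count are themselves among the 20; without them 16 of 38 (42.1%) were higher and 7 (18.4%) lower, with a median of 0.27. Without r1, 21 of the 42 were higher and 7 lower, against 36.2% and 34.9% of all names. With library totals of shared names 21 were higher and 3 lower, against 31.9% and 10.8% of all names.

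The X-linked names moved both ways. miR-452-5p averaged 26.5 ± 3.56 CPM in rat and 0.267 ± 0.102 CPM in mouse, miR-505-3p 57.1 ± 18.4 CPM in rat and 0.872 ± 0.0958 CPM in mouse, and miR-325-3p 60.9 ± 2.77 CPM in rat and 2.53 ± 0.501 CPM in mouse (SD, n = 3 each). In the opposite direction, miR-501-3p averaged 23.6 ± 3.08 CPM in rat and 223 ± 7.37 CPM in mouse (SD, n = 3 each). In r1 the X-linked names had a median of -0.29 against the mean of r2 and r4 on the log2 scale with 0.5 CPM added, where the median of all names was 0.00.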
